A study of Mus musculus with 2 samples.

Results

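The Rnf genes encode proteins with a RING finger, a fold that binds zinc ions and brings a ubiquitin-conjugating enzyme to its target. They were described here through chromatin peaks from an immunoprecipitation against GFP, green fluorescent protein, in heads of E10.5 mouse embryos. Members were all autosomal protein-coding genes of the mm10 RefSeq annotation whose symbol is Rnf followed by a number, with or without a suffix. There were 80 such genes among 20665 autosomal protein-coding genes. A peak was given to a gene where its summit lay in the gene body or within 1 kb of either annotated end, and the stretch so defined is called the window. The series, which addresses functions of the core histone H3.2 in the eye, comprised 2 libraries with the same labels, 1 list of peaks each. The labels gave snap-frozen heads and the antibody for both, and no genotype, sex or litter, and no protein that carried GFP. They do not say whether 1 of the libraries served as a control, so what the absence of library 2 peaks means cannot be told from them. Peak positions do not report expression, so the tissue was not checked against its markers.

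Ubiquitin is passed from an activating enzyme (E1) to a conjugating enzyme (E2) and then, with the help of a ligase (E3), to a lysine of the target. RING ligases hold the charged E2 beside the target and do not carry ubiquitin themselves, except for the RING-between-RING class, which takes it over before passing it on. Depending on how the ubiquitin chain is linked, the target is degraded, moved within the cell or given a new binding partner. In embryos, members of the family act on histones, on Wnt and TGF-β receptors and their inhibitors, on membrane proteins and on DNA breaks.

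Library 1 held 584724 peaks, of which 576675 lay on autosomes, and library 2 held 348, of which 118 lay on autosomes. Read depth was not given in the lists. Autosomal library 1 peaks rested on a median summit pileup of 15 reads, solved from the authors' p-value and fold. The fold is the pileup plus 1 over the background plus 1, so it is lower than the plain ratio of both. Each library is 1 list with no replicate values, and the genes were proposed with their shares of peaks in these lists known, so shares and densities are descriptions and no p-value is given. Intervals are 95% exact intervals (Clopper-Pearson for shares, Poisson for numbers of summits or reads) and cover counting error only.

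All 80 Rnf genes had at least 1 library 1 peak, and none had a library 2 peak. Their library 1 share was 100% (95.5 to 100), against 94.5% of 19127 other autosomal protein-coding genes without olfactory (Olfr) and vomeronasal (Vmn) receptor genes. Weighted to the members' length deciles, the share of other genes was 94.9%, which corresponds to 75.9 of 80 genes. Every member also had a summit inside the gene body, against 93.5% of other genes of the same length. Stronger peaks gave nearly equal shares. With a −log10 q of at least 5, 68 Rnf genes had a peak (85%, 75.3 to 92.0), against 83.6% of the other genes and 84.9% at the same length. The 12 genes without such a peak were Rnf2, Rnf4, Rnf5, Rnf11, Rnf103, Rnf113a2, Rnf135, Rnf138, Rnf139, Rnf167, Rnf181 and Rnf225.

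The share of genes with a peak at an end was also higher in the family. Within 1 kb of an annotated end, 77 of 80 Rnf genes (96.25%, 89.4 to 99.2) had a summit, against 84.8% of other genes and 85.0% at the same length. The median number of such summits was 2 a gene both in Rnf genes (quartiles 1 and 3) and in other genes of the same length. When the stricter limit on q was applied, the shares at an end were 56.25% (44.7 to 67.3) for Rnf genes, against 49.3% for other genes and 49.2% at the same length, which lies inside the interval of the Rnf genes. The 3 members without a summit at an end were Rnf11, Rnf32 and Rnf34. In library 2 the count of 0 among 80 members allows a share of up to 3.75% by the rule of 3 counts, or 4.51% as the upper Clopper-Pearson bound, and 0.162% of other genes had a peak. Just beyond the limit of 1 kb, the closest library 1 summit outside a window lay 1010 bp from Rnf225. The nearest library 2 summit lay 293.7 kb from Rnf185, and the median distance over members was 14579 kb.

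**Figure D1:**
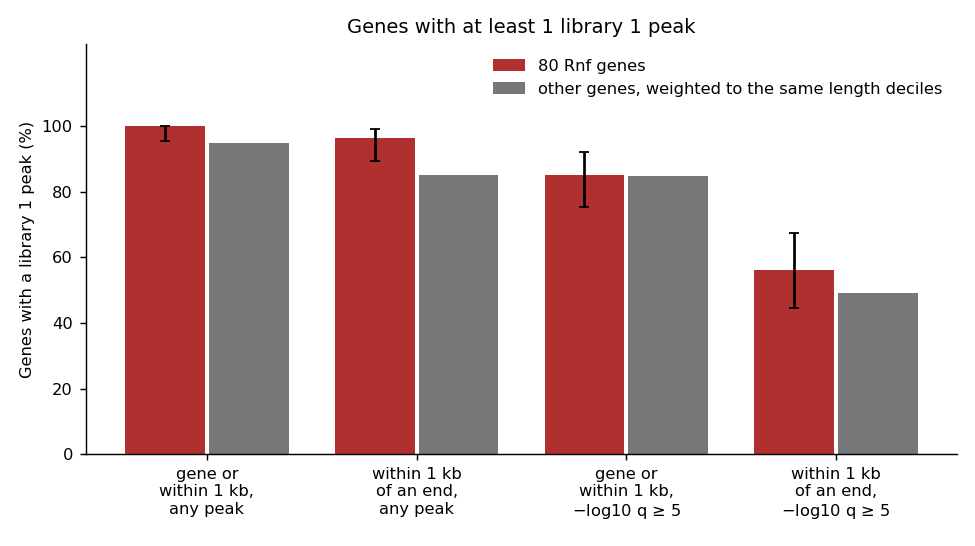
Share of genes with at least 1 library 1 peak (y axis, percent) for the 80 Rnf genes (red, with 95% Clopper-Pearson intervals) and for other autosomal protein-coding genes weighted to the same length deciles (grey), by position and by strength of the peak. All Rnf genes had a peak against 94.9% of other genes, and with −log10 q of at least 5 the shares were 85% and 84.9%.

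The number of peaks varied widely among members. The 80 windows held 1240 library 1 summits, with a median of 9.5 a gene and a range of 1 to 134. A single summit was found in 8 members, 15 had 1 to 3, and 17 had 20 or more. The 5 genes with the most summits held 32.0% of all of them. Per length, the median was 3.22 summits per 10 kb of window in Rnf genes (quartiles 1.94 and 6.38), against 3.95 in other genes of the same length. Each member was also ranked by density among other genes of its length decile. The median rank of the members was the 42.1st percentile, 45 members lay below the 50th and 35 at or above it. The gap in median density was smaller without the flanks. In the gene body alone the medians were 4.03 per 10 kb in Rnf genes and 4.16 in other genes of the same length. Summits pooled over all bodies gave 3.38 per 10 kb in Rnf genes and 3.21 in other genes, and those pooled over all flanks 5.06 and 4.04. Unlike the medians, these pooled values were not weighted to the members' lengths, so they cannot be set beside the medians directly.

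Short and long members differed in rank. Of the 27 members in the 4 shortest deciles (1.24 to 13.7 kb), 17 lay at or above the 50th percentile of their decile, and of the 53 longer members 18 did. The median ranks were the 65.7th and the 35.9th percentile. This grouping of deciles was chosen after the values were seen. In the shortest decile, where 79.0% of other genes had a peak, all 10 Rnf genes had at least 1, with a median of 6.36 summits per 10 kb against 4.28 in other genes. In the 9th decile, which held 13 members, the medians were 2.28 per 10 kb in Rnf genes and 3.07 in other genes. The 7th and 10th deciles, with 6 members each, went the other way, with 3.95 per 10 kb in Rnf genes against 3.88 in other genes in the 7th and 2.28 against 2.12 in the 10th.

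**Figure D2:**
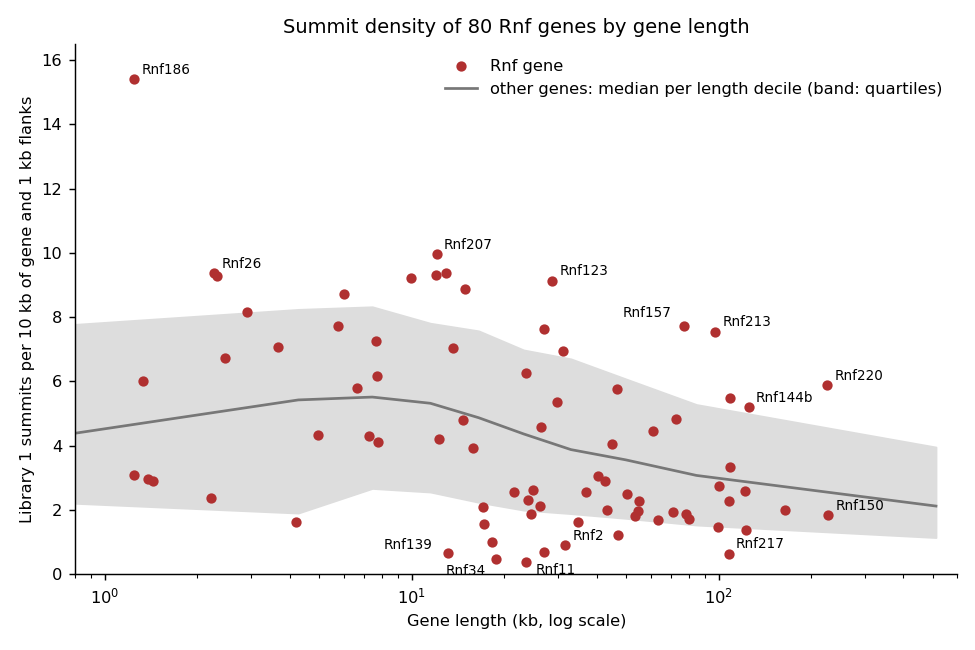
Library 1 summits per 10 kb of window (y axis) against gene length (x axis, kb, log scale) for each of the 80 Rnf genes (red), with the median (line) and quartiles (band) of other genes in each length decile, drawn at the middle of the decile. Rnf186 stands highest at 15.4 per 10 kb, and Rnf11, Rnf34, Rnf217, Rnf139 and Rnf138 lie at 0.39 to 0.69.

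The highest density belonged to Rnf186, a gene known from the epithelium of the gut, at chromosome 4, 138967119 to 138968365. It held 5 library 1 summits in a window of a 1.25 kb gene and its flanks, or 15.4 per 10 kb, the 99.0th percentile of its decile, and none in library 2. The next were Rnf207, a heart gene that acts on potassium channels (14 summits, 9.96 per 10 kb), Rnf126, which takes part in quality control of membrane proteins (14 summits, 9.37 per 10 kb), and Rnf26, an endoplasmic reticulum ligase (4 summits, 9.37 per 10 kb). Rnf31 (9.31 per 10 kb), Rnf224 (9.28), Rnf166 (9.22) and Rnf123 (9.13) followed. Rnf31 assembles linear ubiquitin chains, and Rnf123 is a ligase of the cell cycle inhibitor p27. Among these 8 genes the neighbours in rank differed by less than their counting intervals. The windows of Rnf207, Rnf126, Rnf31, Rnf224, Rnf166 and Rnf123 touched other protein-coding genes. Summits there cannot all be given to the named gene alone.

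At the other end stood Rnf11, an adaptor of ubiquitin ligases in TGF-β and NF-κB signalling, with 1 summit in 23.6 kb (0.39 per 10 kb, 0.01 to 2.172). Rnf34, which acts on caspases and p53, had 1 summit in 18.8 kb (0.48 per 10 kb), 11650 bp from its 5′ end. Rnf217, a RING-between-RING ligase of the iron exporter ferroportin, had 7 summits in 108 kb (0.64 per 10 kb, 0.26 to 1.31), and 51.2 kb of its window lay without a summit. Rnf139, a ligase of the endoplasmic reticulum, had 1 summit (0.66 per 10 kb) and Rnf138, which acts at broken DNA ends, had 2 (0.69 per 10 kb). Both summits of Rnf138 lay within 1 kb of the lower gene end, and the remaining 27.4 kb, or 94.4% of the window, held none. The single summit of Rnf139 was the weakest best peak of the family, with a fold of 2.31 and 11 reads (5.49 to 19.7).

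Among the shortest members, Rnf208 had 2 summits, and Rnf113a2, Rnf133 and Rnf148 had 1 each. Rnf133 and Rnf148 lie inside the gene Cadps2, so a peak there cannot be given to either gene alone. In all, the windows of 34 members touched another protein-coding gene. The 46 others also all had a peak, against 96.5% of other genes of the same length whose windows touched none, with a median of 2.59 summits per 10 kb against 3.46. Among the longest, Rnf150 had 42 summits in 228 kb (1.83 per 10 kb, 1.32 to 2.47). Rnf220, of nearly the same length (226 kb), had 134 (5.89 per 10 kb, 4.93 to 6.97), the 89.3rd percentile of its decile. Rnf180 had 33 in 164 kb (1.98 per 10 kb), Rnf144b 66 in 125.3 kb (5.19) and Rnf17 17 in 122 kb (1.37).

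Members of chromatin and DNA repair ranged from 0.69 to 8.87 summits per 10 kb. Rnf2, the catalytic subunit of Polycomb repressive complex 1 that ubiquitinates histone H2A, had 3 summits in 31.6 kb of chromosome 1, or 0.89 per 10 kb (0.18 to 2.61), the 9.03rd percentile. Its folds were 3.50, 3.23 and 3.21, on 11 to 13 reads. Rnf40, which with Rnf20 ubiquitinates histone H2B, had 15 summits (8.87 per 10 kb, 4.97 to 14.6), and Rnf20 had 7 (2.60, 1.05 to 5.36). Of the ligases that respond to DNA breaks, Rnf8 had 22 summits (7.62 per 10 kb) and Rnf168 had 6 (2.31). Rnf4, which recognises SUMO chains, had 3 (1.56). Of the 8 genes in the list, 3 lay at or above the 50th percentile of their length decile.

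Among signalling members, 4 of 7 lay at or above the 50th percentile. They were Rnf220, which acts on the Hedgehog effectors in the neural tube, Rnf165, an enhancer of BMP signalling in motor neurons (61 summits, 5.49 per 10 kb), Rnf43, which removes Wnt receptors from the cell surface (36 summits, 4.84 per 10 kb), and Rnf41, a ligase of the receptor ErbB3 (17 summits, 5.34 per 10 kb). Rnf111, which degrades inhibitors of TGF-β signalling, had 1.87 per 10 kb, and Rnf146, a ligase of axin, had 2 summits (0.99 per 10 kb). Of the 8 RING-between-RING ligases, 5 lay at or above the 50th percentile, from Rnf31, the catalytic subunit of the linear ubiquitin chain complex, down to Rnf217. Of the 5 innate immune ligases, 2 did, led by the very large protein Rnf213 (75 summits, 7.54 per 10 kb, 5.93 to 9.45). Rnf115 had the lowest density of that list, 1.68 per 10 kb.

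All 7 membrane ligases with a protease-associated domain lay below the 50th percentile of their decile, from the 19.6th (Rnf167, 1 summit) to the 45.1st (Rnf130, 28 summits, 2.73 per 10 kb). The endosomal ligase Rnf13 had the lowest density among them, 1.48 per 10 kb. All 7 germline genes also lay below it, from the 15.03rd percentile (Rnf212, 6 summits, 1.23 per 10 kb) to the 35.4th (Rnf148). Rnf133 and Rnf148 belong to both lists. These 2 genes and Rnf151 had 1 summit each, with intervals of 0.07 to 16.2, 0.08 to 17.2 and 0.06 to 13.2 per 10 kb. Each interval holds the median of other genes in their decile, 4.28, so their ranks below it rest on little. The role lists were drawn up with earlier results of these data known. Of the 8 ligases of the endoplasmic reticulum membrane 3 lay at or above the 50th percentile, and of the 7 genes known from brain or heart 4 did. This last list ranged from Rnf207 to Rnf152 (1.71 per 10 kb), a ligase of the nutrient sensor RagA. Rnf7, the cullin partner also known as Rbx2, had 4 summits (4.11 per 10 kb, 37.0th percentile). The 24 members in no list had a median of the 55.9th percentile. Over all 80, the share below the 50th percentile was 56.25%.

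**Figure D3:**
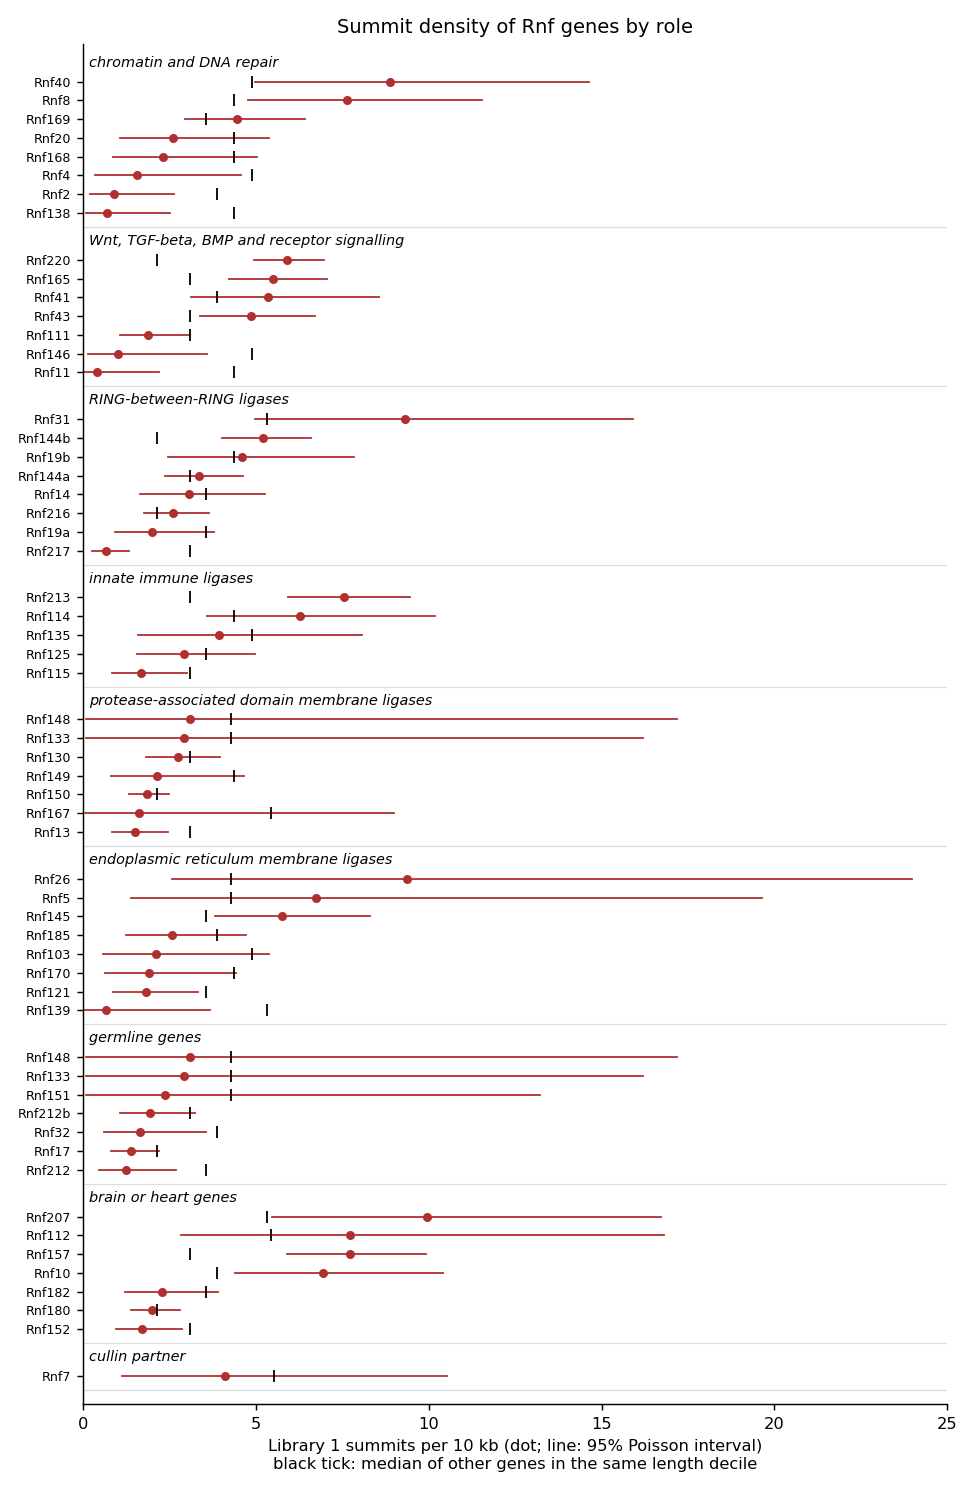
Library 1 summits per 10 kb of window (x axis) for the 56 Rnf genes in a role list (dots, with 95% Poisson intervals), grouped by role, with the median of other genes in the same length decile as a black tick. Rnf133 and Rnf148 appear in 2 lists, and every gene of the protease-associated and germline lists lies left of its tick.

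Close relatives within the family had unlike densities in 3 of 13 pairs, where the counting intervals did not overlap. Rnf111 had 1.87 summits per 10 kb (1.04 to 3.08) and its relative Rnf165 5.49 (4.203 to 7.06), a ratio of 0.340. Rnf115 had 1.68 (0.84 to 3.002) and Rnf126 9.37 (5.13 to 15.7), a ratio of 0.179. Rnf139 had 0.66 (0.02 to 3.67) and Rnf145 5.75 (3.82 to 8.30), a ratio of 0.115 that rests on a single Rnf139 summit. In the other 10 pairs the intervals overlapped, which does not show that the densities were alike. Among these were Rnf20 and Rnf40 (ratio 0.294), Rnf144a and Rnf144b (0.646), Rnf24 and Rnf122 (0.764) and Rnf130 and Rnf150 (1.498). The pairs were chosen after the densities were known, and they were not matched for length. Across the 80 Rnf genes density fell with length (Spearman rho −0.40). Rnf115 spans 63.6 kb and Rnf126 12.9 kb, Rnf139 13.2 kb and Rnf145 46.7 kb. Rnf111 (78.4 kb) and Rnf165 (109 kb) lie in the same length decile. The windows of Rnf126 and Rnf139 each touched another protein-coding gene.

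Peaks in Rnf genes were as strong and as wide as those in other genes. Their median fold enrichment was 3.85 (quartiles 3.23 and 4.58), against 3.90 (3.23 and 4.58) for 324118 peaks in windows of other genes. The median pileup was 15 reads in both sets, the median width 206.5 bp against 207 bp, and 40.1% against 40.5% of peaks had a −log10 q of at least 5. Per gene, the best fold had a median of 5.39 in Rnf genes and 5.66 in other genes of the same length, and 46 members lay below the 50th percentile of their decile.

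The strongest peak of the family lay in the body of Rnf10, a ligase known from nerve cells, at chromosome 5, 115252852 to 115253135. It had a fold of 8.62 and 31 reads (21.1 to 44.0), and Rnf10 stood at the 99.7th percentile of its decile by best fold. Rnf157, a ligase of neurons, had a peak with a fold of 7.81 and 28 reads at chromosome 11, 116390510 to 116390970. Rnf17, a Tudor protein of male germ cells, had the same fold on chromosome 14, 56461041 to 56461216. Rnf13 followed with 7.54, then Rnf43, Rnf130 and Rnf151, a gene of sperm cells, with 7.27 each, and Rnf166 and Rnf212b with 7.002 each. The counting intervals of the pileups of these 9 best peaks overlapped. Rnf151 combined a high fold (26 reads) with a single summit, and Rnf217 a low best fold (4.85) with a low density.

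Orientation was taken from the promoter table of RefSeq (GRCm38.p6), which held 63 of the 80 genes. A summit lay within 1 kb of the 5′ end in 47 of 63 Rnf genes (74.6%, 62.1 to 84.7), against 71.9% of other genes of the same length. At the 3′ end it was 52 of 63 (82.5%, 70.9 to 90.9), against 60.5%. The higher share of Rnf genes with a peak at an end thus lay mostly at 3′ ends. Among genes whose window touched no other protein-coding gene, the 3′ share was 25 of 36 (69.4%, 51.9 to 83.7) for Rnf genes and 57.2% for other genes, and the 5′ share was 72.2% (54.8 to 85.8) for Rnf genes and 70.5% for other genes. The part of neighbouring genes in the difference was not tested.

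Of the Rnf genes with a known strand, 46 were longer than 10 kb. In the first 500 bp after their 5′ ends lay 9.13 summits per 10 kb (5.65 to 14.0), more than in any other bin, against 9.22 in 10376 other genes. From 500 to 1000 bp inside it was 7.39 (4.31 to 11.8) in Rnf genes and 5.04 in other genes. Between 1000 and 500 bp before the start it was 2.174 (0.71 to 5.07) in Rnf genes and 2.58 in other genes. Past the 3′ end, the first and the second 500 bp each held 6.96 per 10 kb (3.98 to 11.3) in Rnf genes, against 4.59 and 4.21 in other genes. In these bins the values for other genes lay inside the intervals of the Rnf genes. They lay outside in 2 of the bins up to 5 kb from either end. These were 3500 to 4000 and 4500 to 5000 bp inside the 5′ end. Rnf genes had 0.87 per 10 kb (0.11 to 3.14) in each, resting on 2 summits, and other genes 3.56 and 3.75. In the bin between them, 4000 to 4500 bp, Rnf genes had 1.74 (0.47 to 4.45), an interval that holds the 3.70 of other genes. With many bins compared, a few can fall outside by counting error alone, so no depletion is read from these 2.

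**Figure D4:**
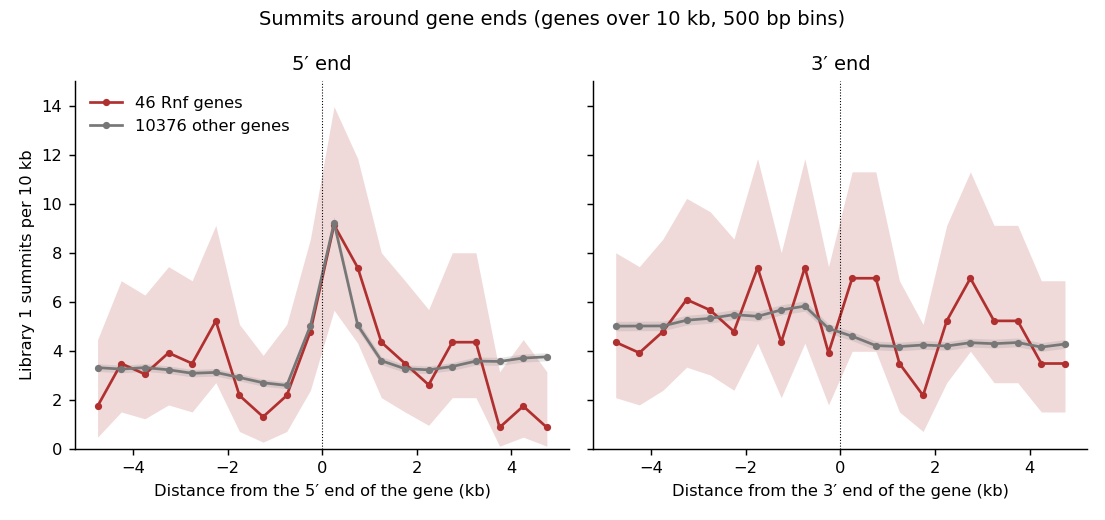
Library 1 summits per 10 kb (y axis) in bins of 500 bp by distance from the 5′ end (left) and the 3′ end (right) of genes longer than 10 kb, with positive distances running in the direction of transcription, for 46 Rnf genes (red) and 10376 other genes (grey) with 95% Poisson bands. Both sets peak in the first 500 bp of the gene, at 9.13 and 9.22 per 10 kb.

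Of 81 promoters of the 63 genes, each 250 bases before to 50 after a start site, 20 held a summit (24.7%, 15.8 to 35.5), against 24.3% of 18739 promoters of other genes. Some genes have several starts, in part with overlapping windows, so the promoters are not independent and the interval may be too narrow. Counted by gene, 20 of the 63 had a summit in a promoter. The promoters with the highest folds belonged to both meiotic crossover genes of the family, Rnf212b (fold 7.002, summit 11 bases after the start) and Rnf212 (5.97, 45 bases after it), and to Rnf183 (5.39, 42 bases before it), a ligase known from the kidney. The start of Rnf212b in this table lies inside the gene, and its summit is 30820 bp from the outermost 5′ end. These promoters are shown because they join a start site to a strong peak. Capitals mark the 21 bases centred on the summit, or as many as the window holds. They lie at chr14:54813900-54814199 on the plus strand, chr5:108774978-108775277 on the minus strand and chr4:62435201-62435500 on the minus strand. The sequences run 5′ to 3′.
Rnf212b: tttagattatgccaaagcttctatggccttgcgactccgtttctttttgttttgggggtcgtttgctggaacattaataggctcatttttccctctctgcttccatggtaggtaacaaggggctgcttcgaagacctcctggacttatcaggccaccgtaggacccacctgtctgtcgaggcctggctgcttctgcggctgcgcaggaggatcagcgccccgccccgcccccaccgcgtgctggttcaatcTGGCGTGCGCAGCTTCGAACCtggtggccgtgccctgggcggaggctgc
Rnf212: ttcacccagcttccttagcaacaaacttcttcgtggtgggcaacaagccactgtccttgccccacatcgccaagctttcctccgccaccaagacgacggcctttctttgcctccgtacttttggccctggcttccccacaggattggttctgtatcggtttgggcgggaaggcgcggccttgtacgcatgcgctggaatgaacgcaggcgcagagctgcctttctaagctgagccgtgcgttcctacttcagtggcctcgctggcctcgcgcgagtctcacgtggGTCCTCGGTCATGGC
Rnf183: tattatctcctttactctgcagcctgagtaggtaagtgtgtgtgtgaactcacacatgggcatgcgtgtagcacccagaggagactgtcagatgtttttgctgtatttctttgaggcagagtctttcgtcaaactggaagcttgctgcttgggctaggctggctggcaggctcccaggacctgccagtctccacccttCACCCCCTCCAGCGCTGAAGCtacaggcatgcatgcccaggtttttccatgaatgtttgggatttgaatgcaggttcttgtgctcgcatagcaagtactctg

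The promoters of Rnf130 and Rnf34 are shown for the opposite case, with many CpG dinucleotides and no summit within 4 kb. Rnf130 had 49 CpG in 300 bases, the most of the 81, a GC content of 78% and its nearest summit 6503 bp away (chr11:50025081-50025380, plus strand). Rnf34 had 35 CpG, 69% GC and its nearest summit 4778 bp away (chr5:122849938-122850237, plus strand).
Rnf130: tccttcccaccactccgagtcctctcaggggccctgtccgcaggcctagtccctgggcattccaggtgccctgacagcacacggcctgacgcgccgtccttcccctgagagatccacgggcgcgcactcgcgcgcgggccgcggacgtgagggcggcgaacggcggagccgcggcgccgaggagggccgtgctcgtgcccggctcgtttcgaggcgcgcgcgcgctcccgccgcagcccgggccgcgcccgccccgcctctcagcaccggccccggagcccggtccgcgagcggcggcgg
Rnf34: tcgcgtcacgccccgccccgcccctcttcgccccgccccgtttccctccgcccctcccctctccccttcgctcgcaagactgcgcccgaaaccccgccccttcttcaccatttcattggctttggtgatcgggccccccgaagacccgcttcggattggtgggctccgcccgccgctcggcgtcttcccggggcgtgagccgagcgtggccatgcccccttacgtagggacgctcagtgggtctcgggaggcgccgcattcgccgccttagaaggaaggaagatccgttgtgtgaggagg

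The promoters of Rnf genes had a median of 21 CpG (quartiles 11 and 27) and 60.3% GC, against 15 CpG (5 and 26) and 57.7% GC in other genes. With 0 to 5 CpG, 1 of 14 Rnf promoters and 15.4% of other promoters held a summit. With 6 to 15 CpG these were 3 of 14 (21.4%) and 27.8%, and with 16 to 25 CpG 9 of 27 (33.3%) and 28.1%. With more than 25 CpG they were 7 of 26 (26.9%) and 26.7%, so the shares did not rise steadily with CpG. The letters GGGCGG, the core of an Sp1 site, were found on either strand in 65.4% of Rnf promoters and 50.1% of other promoters. CCAAT was found in 37.0% and 37.7%, TATAAA in 13.6% and 10.9%, and CACGTG in 6.17% and 8.26%. These motifs do not contain one another, and a match is a run of letters, not a bound site.

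The density of a member followed that of its surroundings. In the 500 kb on each side, Rnf genes had a median of 4.32 library 1 summits per 10 kb, against 3.56 around other genes of the same length. Across the 80 Rnf genes, density in the window and in the region had a Spearman rho of 0.61 (Pearson r = 0.61), and across other genes 0.69 (r = 0.66). Neighbouring genes share regions, so these are descriptions across genes and not tests. In 38 of 80 Rnf genes (47.5%, 36.2 to 59.0) the window was denser than the region, against 58.5% of other genes of the same length, which lies inside that interval. The median ratio of window to region was 0.963 in Rnf genes and 1.14 in other genes.

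Single members departed from their region in both directions. Rnf145 had 5.75 summits per 10 kb in a region with 1.59, a ratio of 3.61 and the 99.7th percentile of its decile. Rnf144a stood at the 98.2nd percentile, with 3.35 against 1.25. Rnf34 had 0.48 against 5.61, a ratio of 0.0856, and Rnf11 had a ratio of 0.180. Members lay on 18 of the 19 autosomes. Chromosome 11, the autosome with the most library 1 summits per length, carried 12 of them, and 8 of these lay at or above the 50th percentile. Chromosome 5 (2.87 summits per 10 kb) carried 7, of which 2 did. On chromosome 11 the median density was 5.77 per 10 kb in Rnf genes and 5.52 in other genes, and on chromosome 5 it was 1.63 and 4.64. These medians were not weighted by length.

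**Figure D5:**
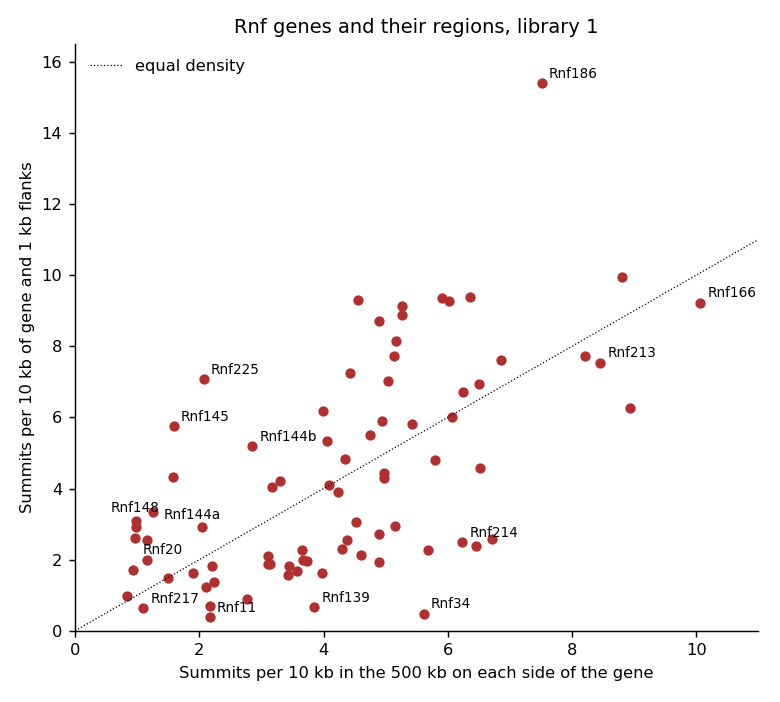
Library 1 summits per 10 kb in the window of each of the 80 Rnf genes (y axis) against the same density in the 500 kb on each side (x axis), with a dotted line of equal density. Points below the line outnumber those above it, with Rnf145 far above and Rnf34 far below.

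Other families of the ubiquitin system were set beside the Rnf genes by symbol. A library 1 peak was present in 66 of 68 Trim genes (97.1%), all 11 March genes, 33 of 34 E2 genes, all 7 cullin genes, all 25 HECT ligase genes, 76 of 78 F-box genes and 48 of 50 Usp deubiquitinase genes. The exceptions were Trim30b, Trim43c, Ube2m, Fbxw14, Fbxw28, Usp17la and Usp17lb. Genes of the same length as these lists gave 95.7% to 99.7%. The lists named here had median density ranks from the 15.8th percentile (cullins) to the 49.9th (Usp), beside the 42.1st percentile of the Rnf genes. The 388 Zfp genes, mostly zinc finger transcription factors, had a peak in 95.1%, against 96.2% of genes of the same length. Their median rank was the 29.1st percentile.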

How the data were processed

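Chromatin immunoprecipitation sequencing (ChIP-seq) had been carried out on heads at embryonic day 10.5, and each library came with a narrowPeak list. Per the submitters' processing notes, the tools were MACS2 2.1.0, Bowtie 1.1.2, Trimmomatic 0.33 and bcl2fastq 2.17, and the builds mm10 and hg38, with no roles or settings. Peak coordinates are mm10, counted from 1. The deposited lists hold a whole-number score (−log10 q times 10), a ratio (the fold, which is a summit's pileup plus 1 over its background plus 1), and −log10 p-values and q-values. All are the authors' values as deposited, and were used to describe or filter peaks within a list.

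Gene positions came from the RefSeq table of GRCm38.p6. Genes were split into 10 length bins, and values of other genes were weighted to the members' bins. A percentile is the share of other genes of the bin with a lower value, ties counted in part. The summit pileup was solved from fold and −log10 p-value (tolerance 0.002), which gave a whole number for 100% of autosomal library 1 peaks. Counting of summits and the pileup solution were tested on simulated data. Python 3.11.15, numpy 2.4.6, pandas 2.3.3 and scipy 1.17.1 were used.

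Members, role lists and families were chosen with earlier results of these data known. Genes were named by rank: the 8 highest and 5 lowest densities, the 8 highest folds with ties, the 5 longest and 5 shortest genes, and the densest and sparsest gene of each role list. Others were named for their role, or after their values were seen. No test was run, because each list stands alone and the labels do not say that the libraries came from separate embryos. A planned search for RING residues in protein sequences was not run, since no protein table was used here. Not every member is reported by name here.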

Additional observations from a re-analysis of the deposited data

How the results depend on the processing

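Of 61 recomputed values, 29 could not move by construction (other comparison genes, merging, or limits that act on counts of 0 or of all members) and say nothing on stability. Of the other 32, 24 stayed within the 95% interval of the reported value (for the count of members with a peak, within 1.5 times), and 8 moved. The 24 include the library 1 share of genes named Rnf and a number only (74 of 74). They also include that of windows that touch no other protein-coding gene (46 of 46). All 80 members had a peak, so neither share could differ in a smaller set. Both say nothing on stability, and the 24 overstate it. Medians were judged by their order-statistic interval. Stronger peaks moved 6 of them. With −log10 q of at least 5, the share of members with a library 1 peak was 85%, the share with a peak at an end 56.25% and the median density 1.18 per 10 kb. With peaks at or above the median fold of the list, these were 87.5%, 62.5% and 1.51. Other genes of the same length gave 84.9%, 49.2% and 1.46 in the first case and 87.8%, 57.6% and 1.88 in the second. The higher share of Rnf genes with a peak in the window was thus seen only with weaker peaks included. At an end the Rnf share was above that of other genes in both cases. In the first case, however, the 49.2% of other genes lay inside the Rnf interval of 44.7 to 67.3. No interval is given for the second. With the 46 windows that touch no other protein-coding gene, the count of members with a peak was 46, since fewer genes entered. Leaving out each library gave 0 to 80 members, 0 without library 1. In a window of 5 kb on each side all 80 members had a peak, against 97.2% of other genes of the same length. No peaks in a list touched, so merging changed nothing. No paired analysis was possible because there was 1 group and no test. Pileups of 10 to 31 reads at the best peaks limit the ranking of folds, and 15 members rest on 1 to 3 summits.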

Other observations

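Outside the rule lay 5 genes named Rnf. Rnf128, an X-linked ligase of T cell anergy, spans 109.8 kb and had no summit in either library, while 99.9% of other autosomal genes of its length decile had a library 1 peak. Of 74 other X-linked protein-coding genes of that length, 51 (68.9%) had one, with a median of 1 summit. The short X-linked genes Rnf113a1 and Rnf138rt1 also had none. Of all 956 other X-linked protein-coding genes, of any length, 49.4% had a library 1 peak, a share not matched to these short genes. The noncoding gene Rnf227 on chromosome 11 had 2 summits, with a best fold of 4.58, and the pseudogene Rnf170-ps on chromosome 7 had 1, with a fold of 3.50.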
